A study of Mus musculus with 12 samples.

Results

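The 9 genes examined here encode subunits of the Polycomb repressive complexes, and binding of the acetyltransferase MOF to them was read in mouse visceral white adipose tissue (WAT). They were taken by name, located with GENCODE mouse release M21, and are 9 of 21938 protein-coding genes on the assembled chromosomes. The 6 core subunit genes are Ezh1, Ezh2, Eed and Suz12 of Polycomb repressive complex PRC2, and Rnf2 and Bmi1 of PRC1. The 3 Cbx genes are Cbx2, Cbx7 and Cbx8. A peak was counted for a gene when it touched the gene body or lay within 3 kb of any annotated start site of that gene.

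MOF, also called KAT8, acetylates lysines of histone H4. Its binding was measured by chromatin immunoprecipitation with sequencing (ChIP-seq) in wild type (Mof+/+) mice and in mice heterozygous for Mof (Mof+/-). All 12 libraries came from visceral WAT of C57BL/6 animals 8 weeks old on a standard diet, and each genotype has 2 libraries of the MOF ChIP, 2 of the input and 2 of a ChIP for histone H3 (6 groups). The design text counts 2 control and 3 Mof+/- animals, whereas the labels give 2 libraries of each kind per genotype. The reporting summary of the study has the number in the labels and calls the animals littermates. The values analysed here were 2 peak lists, 1 per genotype, and neither list carries replicate values. The comparison of genotypes below is therefore a description, with no test and no spread between animals.

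Polycomb complexes keep genes silent through chromatin. PRC2 methylates a lysine in the tail of histone H3, a mark that chromodomain proteins of the Cbx family read, and PRC1 attaches ubiquitin to histone H2A. Polycomb subunits restrain developmental regulators and cell cycle inhibitors in many tissues, and Ezh2 and Bmi1 are studied in adipocyte precursors and in other stem cells. Histone acetylation, which MOF lays down, marks the opposite, active state of a promoter.

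At every member the Mof+/+ list held a MOF peak. Of the 9 genes, 9 had a Mof+/+ peak, compared with 44.5% of all protein-coding genes, and 9 had one within 1 kb of a start site, compared with 41.0%. In the Mof+/- list 3 of the 9 (Bmi1, Cbx2 and Cbx8) had a peak, compared with 1.89% of all protein-coding genes, and the same 3 had one within 1 kb of a start, compared with 1.32%. Among all genes with a Mof+/+ peak, 4.06% also had a Mof+/- peak. Cbx2 and Cbx8 are neighbours separated by 5034 bp, so these 3 genes stand at 2 places in the genome.

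The sequences below are 151 bases around summits, the positions of highest enrichment within a peak. They are shown as examples of the range of CpG content among members, and were picked after their values were seen. Other summits of the same genes differ, such as the Bmi1 Mof+/+ summit at position 18679868 with 0 CpG and a Cbx8 Mof+/- summit at 119044183 with 1. Each is the GRCm38 sequence 5′ to 3′ on the strand of its gene, in lower case, with each CpG in capitals. Summits within untranslated exons are not printed.
Ezh2, Mof+/+ summit, chr6:47594172-47594322, minus strand: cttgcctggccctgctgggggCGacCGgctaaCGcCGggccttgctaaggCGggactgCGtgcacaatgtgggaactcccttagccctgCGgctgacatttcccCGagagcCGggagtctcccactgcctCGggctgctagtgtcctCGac
Suz12, Mof+/+ summit, chr11:79993678-79993828, plus strand: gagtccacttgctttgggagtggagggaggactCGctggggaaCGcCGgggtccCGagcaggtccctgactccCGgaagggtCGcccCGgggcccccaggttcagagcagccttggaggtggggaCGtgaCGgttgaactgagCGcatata
Bmi1, Mof+/- summit, chr2:18677627-18677777, plus strand: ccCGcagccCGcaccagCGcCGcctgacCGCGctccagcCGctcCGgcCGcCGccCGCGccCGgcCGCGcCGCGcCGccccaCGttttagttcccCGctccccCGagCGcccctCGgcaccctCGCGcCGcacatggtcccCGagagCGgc
Cbx2, Mof+/+ summit, chr11:119021954-119022104, plus strand: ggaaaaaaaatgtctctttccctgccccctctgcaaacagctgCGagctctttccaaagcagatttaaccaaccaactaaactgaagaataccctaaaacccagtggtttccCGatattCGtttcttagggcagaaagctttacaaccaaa
Cbx2, Mof+/- summit, chr11:119022608-119022758, plus strand: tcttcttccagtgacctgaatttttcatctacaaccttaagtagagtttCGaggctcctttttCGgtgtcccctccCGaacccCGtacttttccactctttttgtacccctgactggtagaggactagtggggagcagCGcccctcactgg
Cbx7, Mof+/+ summit in an intron, chr15:79927500-79927650, minus strand: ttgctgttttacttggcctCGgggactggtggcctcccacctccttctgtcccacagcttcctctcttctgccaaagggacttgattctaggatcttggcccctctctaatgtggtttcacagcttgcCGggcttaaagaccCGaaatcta
Cbx8, Mof+/- summit, chr11:119042772-119042922, minus strand: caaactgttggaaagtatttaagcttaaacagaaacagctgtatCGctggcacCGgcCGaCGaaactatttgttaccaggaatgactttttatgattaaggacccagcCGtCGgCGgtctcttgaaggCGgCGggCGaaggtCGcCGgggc
The Ezh2 stretch holds 11 CpG and the Suz12 stretch 10, compared with a median of 4 over all 19753 Mof+/+ summits and a median of 5 over all 716 Mof+/- summits. The Bmi1 stretch is the richest of the 7, with 28 CpG in 151 bases. At Cbx2 the Mof+/+ stretch holds 3 CpG and the Mof+/- stretch 5. The Cbx7 intronic stretch holds 3 and the Cbx8 stretch 12. At least 1 CpG was present in 89.8% of Mof+/+ and 95.4% of Mof+/- summit stretches of this length.

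Peak values rested on few fragments, and the lists differed in their lowest background, from which a difference in depth was inferred. Fold enrichment is the ratio of ChIP fragments over a summit plus 1 to the local background plus 1, and fragments and background were recovered from the deposited fold enrichment and −log10 p-value. Background fell no lower than 3.52 fragments for Mof+/+ and 2.26 for Mof+/-, and the −log10 p of the weakest listed peak was 3.25 and 4.72, respectively. The median summit held 16 fragments and 14. Intervals given after a value are exact 95% Poisson intervals of the fragments over the summit and cover counting error only. Chromatin was cut with the enzyme CviKI-1 as well as sheared, so fragment ends depend partly on local sequence. As a check of the tissue, 5 of 8 adipocyte marker genes had a Mof+/+ promoter peak, among them Adipoq and Plin1, as did 5 of 6 B cell, 6 of 6 T cell, 2 of 6 fibroblast and progenitor, 1 of 6 macrophage, 1 of 6 endothelial, 1 of 6 mesothelial and 0 of 6 hepatocyte markers, compared with 41.0% of all protein-coding genes. These shares do not single out adipocytes. In the Mof+/- list these were 0 for adipocytes and 1 each for B cells (Pax5) and fibroblasts and progenitors (Pdgfra), and 0 for the other 5 lists, compared with 1.32%. The part of cell makeup in the results was not tested, and in bulk tissue fewer cells with MOF at a site and less MOF per cell cannot be told apart.

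Each gene for a catalytic subunit of PRC2 had 1 Mof+/+ peak, at its start. Ezh2, the methyltransferase of PRC2 in dividing cells (ENSMUSG00000029687.16, chr6:47530139-47595341, minus strand), had 1 Mof+/+ peak at chr6:47593498-47595838 that covered its start. The Ezh2 summit lay in an intron and held 24 fragments, a fold enrichment of 5.53 (3.62 to 8.12). Only 5.89% of Mof+/+ peaks were as enriched, and 4.61% were as wide as its 2341 bp. Ezh1, the paralogous methyltransferase that is prominent in non-dividing cells (ENSMUSG00000006920.14, chr11:101191115-101226463, minus strand), had 1 peak of 963 bp at chr11:101225743-101226705. Its summit held 16 fragments and reached 3.76 (2.24 to 5.97), the lowest strongest peak among the 9 members. The intervals of Ezh1 and Ezh2 overlap, so their order is not separated from counting error. The non-coding gene Gm26625 starts 783 bp from a start site of Ezh2. Neither gene had a Mof+/- peak, and the nearest one lay 1618779 bp from a start site of Ezh2 and 184956 bp from one of Ezh1.

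The genes of the other PRC2 core subunits were bound once each, across the start site. Eed, which binds the methylated histone tail and stimulates the enzyme (ENSMUSG00000030619.9, chr7:89954654-89980983, minus strand), had a peak of 1621 bp at chr7:89979797-89981417. Its 21 fragments gave a fold enrichment of 4.25 (2.71 to 6.40), and the summit lay 137 bp inside the nearest start, in an untranslated exon. The start of the non-coding gene E230029C05Rik lies 164 bp from that of Eed, and the same peak overlapped it, so the peak cannot be given to either gene alone. The start of Gm45120 lies 553 bp from a start site of Eed. Suz12, the scaffold of PRC2 (ENSMUSG00000017548.15, chr11:79993106-80034123, plus strand), had a peak of 1335 bp at chr11:79992586-79993920. It held 18 fragments at an intronic summit 647 bp after the start, a fold enrichment of 4.07 (2.50 to 6.31). The nearest neighbouring start, of the non-coding gene Gm26563, was 2667 bp away. No Mof+/- peak lay nearer than 9616975 bp to a start of Eed or 2994809 bp to one of Suz12. Over the 4 PRC2 genes the Mof+/+ peaks ranged from 3.76 to 5.53 with a median of 4.16, and none of the 4 genes had a Mof+/- peak.

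Of the 2 PRC1 core genes, Bmi1 had the highest value of the 9 members, and Rnf2 shared its value with Ezh2 and Cbx7. The interval of Bmi1 (5.43 to 10.7) overlaps that of these 3 genes (3.62 to 8.12), so their order is not separated from counting error. Rnf2 encodes the RING1B ubiquitin ligase (ENSMUSG00000026484.13, chr1:151458004-151500955, minus strand), and its single peak of 1428 bp lay at chr1:151499812-151501239. The summit, 65 bp from the nearest start and in an untranslated exon, held 24 fragments, a fold enrichment of 5.53 (3.62 to 8.12). It also lay within 3 kb of the start of Gm36527, 1209 bp from a start site of Rnf2. The nearest Mof+/- peak was 2399284 bp from a start of Rnf2.

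Bmi1 was the only core subunit gene with a peak in both lists. It encodes the PCGF partner of the ligase that limits expression of cell cycle inhibitors (ENSMUSG00000026739.13, chr2:18677018-18686629, plus strand). Its strongest Mof+/+ peak, at chr2:18676089-18678716, held 34 fragments at a summit 26 bp before the start, a fold enrichment of 7.74 (5.43 to 10.7) that 0.486% of Mof+/+ peaks reached. Weaker Mof+/+ peaks followed in introns, at chr2:18679233-18680227 with 3.12 (1.86 to 4.96) and at chr2:18680548-18681028 with 3.32 (1.91 to 5.42). Each of the 3 lay within 1 kb of an annotated start of Bmi1, which has 7. In the Mof+/- list Bmi1 had 2 narrow peaks, of 262 and 295 bp, on either side of the Mof+/+ summit. The upstream one, at chr2:18676035-18676296, held 14 fragments, a fold enrichment of 4.37 (2.52 to 7.13). The intronic one, at chr2:18677497-18677791, held 12, with 3.78 (2.10 to 6.39). Both overlapped the strongest Mof+/+ peak, by 503 bp together, and the nearer Mof+/- summit stood 710 bp from the Mof+/+ summit. Their intervals overlap that of the Mof+/+ peak. The start of the protein-coding gene Commd3 lies 2369 bp from that of Bmi1, and 2 of the 5 peaks overlapped Commd3 while 3 lay within 3 kb of its start.

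**Figure D1:**
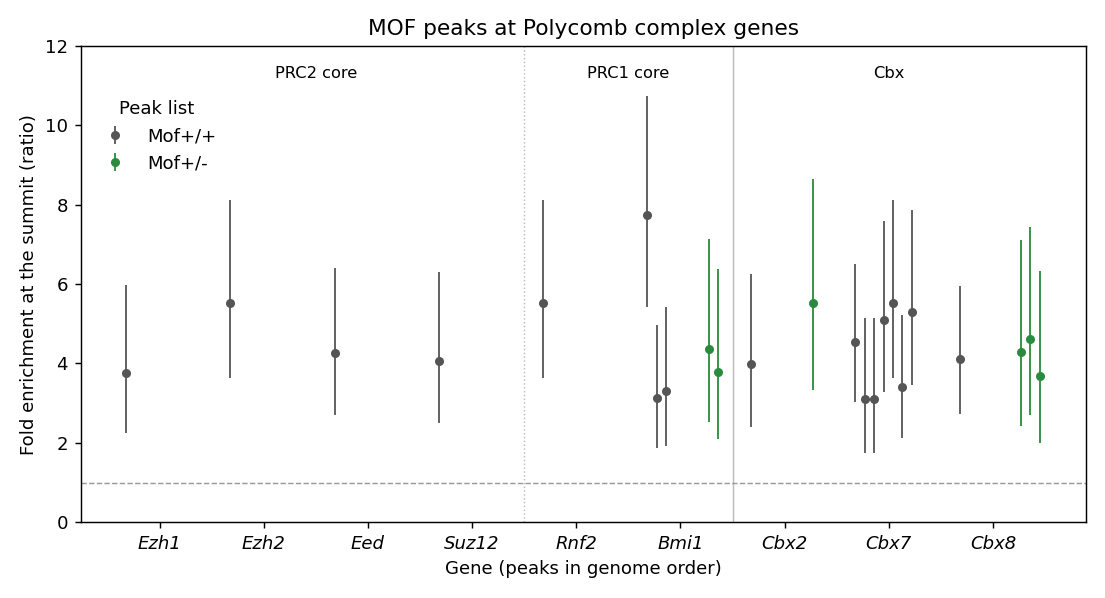
Fold enrichment at the summit (vertical axis, ratio) of every peak at the 9 genes, with each point 1 peak in genome order, grey for the Mof+/+ list and green for the Mof+/- list. Bars are 95% Poisson intervals of the fragments at the summit and the dashed line is a ratio of 1. The strongest Bmi1 peak, at 7.74, is the highest point, and green points stand only at Bmi1, Cbx2 and Cbx8.

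Among the Cbx genes, Cbx2 and Cbx8 had peaks in both lists and Cbx7 in the Mof+/+ list alone. Their proteins carry the chromodomain that reads the PRC2 mark and target PRC1 to chromatin. Cbx2 (ENSMUSG00000025577.7, chr11:119022962-119031270, plus strand) had 1 Mof+/+ peak of 1507 bp at chr11:119021757-119023263. Its 17 fragments at a summit 933 bp before the start gave 3.98 (2.41 to 6.24). The Mof+/- peak, 1203 bp at chr11:119021612-119022814, also held 17 fragments, with a fold enrichment of 5.52 (3.34 to 8.65). The number of fragments was thus the same, and the ratio, in which 1 is added to fragments and to background, was taken against a background of 2.26 for Mof+/- and 3.52 for Mof+/+. The 2 Cbx2 peaks shared 1058 bp, and the Mof+/- summit lay nearer the start, 279 bp before it and 654 bp from the Mof+/+ summit.

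Cbx8 carried the widest peak of the set (ENSMUSG00000025578.9, chr11:119036305-119040969, minus strand). The Mof+/+ peak at chr11:119040144-119048698 was 8555 bp wide, a width that 0.127% of Mof+/+ peaks reached, and ran from the first part of the gene to 7729 bp upstream. Its summit, 1753 bp before the start, held 26 fragments, a fold enrichment of 4.11 (2.74 to 5.95). Within it the Mof+/- list had 3 peaks that met the window. They held 13, 15 and 11 fragments, with fold enrichments of 4.29 (2.43 to 7.12), 4.62 (2.71 to 7.43) and 3.68 (1.99 to 6.34). The second of them, chr11:119042687-119043512, had its summit 125 bp from the Mof+/+ summit, the closest match between the lists at any member. The Mof+/- peaks of Cbx8 all lay upstream of the gene, and 1 of the 3 was within 1 kb of the start.

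Cbx7 had the largest number of peaks among the 9 members and none in the Mof+/- list. Cbx7 (ENSMUSG00000053411.16, chr15:79915807-79971119, minus strand) held 7 Mof+/+ peaks that covered 12910 bp, compared with a median of 1 peak over protein-coding genes with a peak. The gene body of Cbx7 is 55313 bp as annotated, and Ezh2, at 65203 bp, had 1 peak. Among the other Polycomb genes described below, Bcor had 11 Mof+/+ peaks, Kdm2b 8 and Jarid2 7, also without a Mof+/- peak. None of the 7 covered the annotated 5′ end of Cbx7, and the nearest began 20322 bp inside the gene. The strongest, at chr15:79931553-79934325, spanned an internal start site, 1 of 9 annotated, with its summit 36 bp before that start, and held 24 fragments, a fold enrichment of 5.53 (3.62 to 8.12). A shoulder at chr15:79934665-79936028, in an intron, reached 3.41 (2.12 to 5.22) and also lay within 1 kb of a start.

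The other 5 Cbx7 peaks lay between 3604 and 16591 bp from the nearest start site. Intronic peaks at chr15:79926828-79928912 and chr15:79950490-79950797 reached 5.09 (3.27 to 7.59) and 5.31 (3.45 to 7.86). The second of these was the narrowest Mof+/+ peak of the set, at 308 bp. A peak of 5497 bp at the 3′ end, chr15:79912395-79917891, had its summit in an untranslated exon and reached 4.53 (3.04 to 6.52) with 27 fragments. It overlapped the protein-coding neighbour Apobec3, so it is shared between the genes. Other Mof+/+ peaks, outside the windows, ran on across Apobec3. The strongest of them, at chr15:79897522-79902354, reached 5.99 (4.10 to 8.47), compared with 5.53 (3.62 to 8.12) for the strongest peak of Cbx7. Smaller peaks at chr15:79918251-79918693 and chr15:79919469-79919908 both stood at 3.10 (1.75 to 5.14), the lowest values at any member. The nearest Mof+/- peak lay 36939 bp from a start site of Cbx7.

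**Figure D2:**
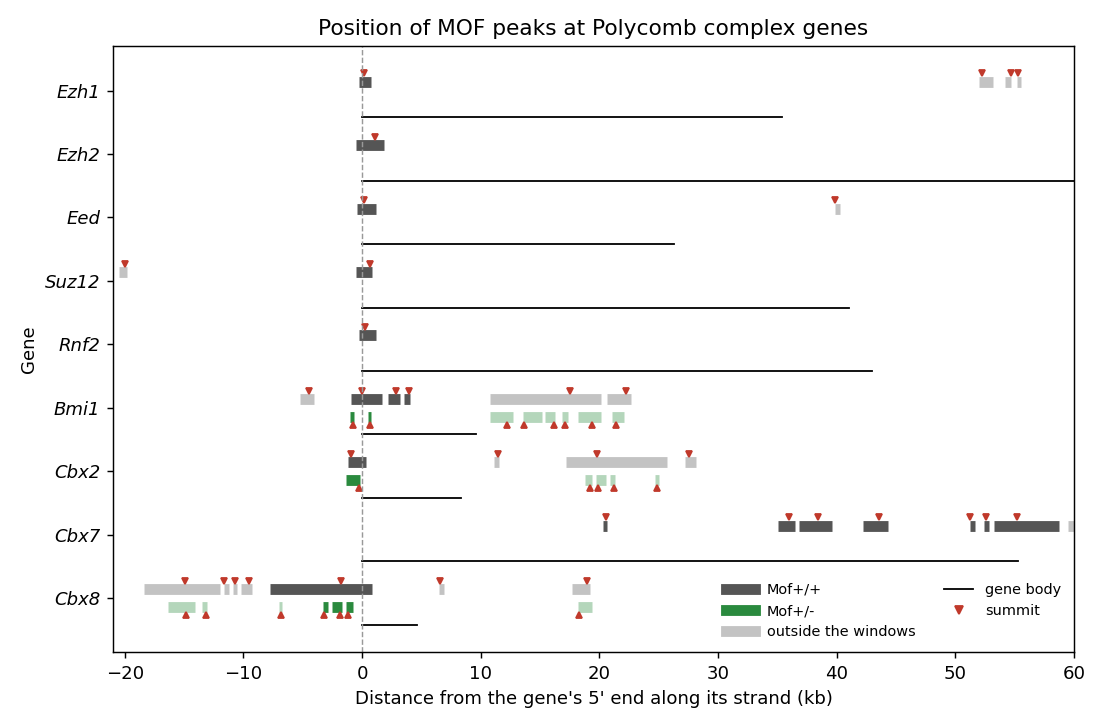
Extent of each peak along its gene, with the horizontal axis the distance in kb from the gene's 5′ end along its strand and 1 row per gene, grey bars for Mof+/+, green bars for Mof+/- and red triangles for summits. Pale bars lie outside the windows and within 20 kb of the gene, and the black line is the gene body, which for Ezh2 runs past the edge. Most pale bars beyond the 3′ end of Cbx7, over Apobec3, also fall past the edge. The PRC2 genes and Rnf2 show 1 full bar, at the start, with pale grey bars farther off at Ezh1, Eed and Suz12, Cbx7 shows 7 bars spread over its body, and the full green bars of Bmi1, Cbx2 and Cbx8 lie close to the start or upstream of it, with pale green bars downstream of Bmi1 and Cbx2 and on both sides of Cbx8.

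Core subunit genes and Cbx genes overlapped in the strength of their peaks, and the sequence their Mof+/+ peaks covered overlapped in range too. The 6 core subunit genes held 8 Mof+/+ peaks and the 3 Cbx genes held 9, of which 7 were at Cbx7. The strongest peak per gene had a median fold enrichment of 4.89 (range 3.76 to 7.74) over the core subunit genes and 4.11 (3.98 to 5.53) over the Cbx genes, so the ranges overlap. Over the 9773 protein-coding genes with a Mof+/+ peak this median was 3.98, with an interquartile range of 3.38 to 4.87. Covered length was a median of 1524.5 bp per core subunit gene (963 to 4104) and 8555 bp per Cbx gene (1507 to 12910), and Cbx2, at 1507 bp, lay under the median of the core subunit genes. In the Mof+/- list 1 of the 6 core subunit genes and 2 of the 3 Cbx genes had a peak, compared with 1.89% of all protein-coding genes. The 2 Cbx genes form a single locus, and with gene bodies alone 1 core subunit gene and 0 Cbx genes had one, so these counts do not set the groups apart. The Mof+/- peaks in the windows had a median width of 709.5 bp over 4 peaks of the Cbx genes and 278.5 bp over the 2 of Bmi1. This sets the single Cbx2 and Cbx8 locus beside 1 gene. Outside the windows, Mof+/- peaks ranged from 434 to 1925 bp near Bmi1 and from 265 to 2310 bp near Cbx8, so width does not set the groups apart.

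Sequence at the summits varied within both groups of genes. In the 150 bases on either side of each summit the 8 core Mof+/+ peaks held a median of 25.5 CpG, with a range of 0 to 35, and the 9 Cbx peaks a median of 7, with a range of 3 to 42. The median over all Mof+/+ peaks was 7, with an interquartile range of 3 to 21. Of the 9 Cbx peaks 7 were at Cbx7, and only 2 of those 7 lay within 1 kb of a start site, as every core peak did. The 2 medians thus differ in the position of the peaks as well as in the group of genes. The richest Cbx summit, with 42 CpG, was that at the internal Cbx7 start site, whereas the second Bmi1 peak held 0. Cutting sites of the enzyme, which has a purine before GC and a pyrimidine after it, numbered a median of 8 in the core peaks, 7 in the Cbx peaks and 7 over the list, which are close to each other.

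Promoters of 8 of the 9 members were matched by symbol in the RefSeq promoter table of GRCm38.p6 (250 bases before to 50 after the start). Cbx2 had no entry. These promoters held a median of 27 CpG, and the median over all 32851 promoters was 7. The letters GGGCGG, on either strand, were found in 5 of the 8, at Bmi1 with 6 copies, Suz12 with 3, Rnf2 with 2 and Cbx7 and Cbx8 with 1 each, and in 35.7% of all promoters. CCAAT, on either strand, was found in 5 of 8 and in 37.4% of all, with 3 copies at Ezh2 and 2 at Cbx8. TATAAA and CCGGAA were found in 0 of the 8, compared with 13.6% and 14.9% of all promoters. Both GGGCGG and CCGGAA contain a CpG, so those counts are not independent of it, and a match describes the sequence only.

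Loss of a peak from the Mof+/- list was set against depth. Of the 17 Mof+/+ peaks at members, 3 overlapped a Mof+/- peak, compared with 2.44% of all Mof+/+ peaks. In the other direction 6 of 6 Mof+/- peaks at members overlapped a Mof+/+ peak, compared with 84.8% of all Mof+/- peaks. Fragments of each Mof+/+ summit were scaled by 0.642, the ratio of the lowest backgrounds, and compared with the weakest −log10 p of the Mof+/- list. After this scaling 11 of the 17 peaks would still pass, compared with 37.0% of all Mof+/+ peaks. Of these 11, 8 had no Mof+/- peak. Passes take the fragments as counted, without their counting error. Without scaling, 15 of the 17 met that cutoff, compared with 68.6% of all. Among all Mof+/+ peaks that passed after scaling, 4.9% overlapped a Mof+/- peak.

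The 8 passing peaks without a Mof+/- counterpart belonged to Ezh2, Eed, Suz12, Rnf2 and Cbx7. At Ezh2, Rnf2 and the internal Cbx7 start the scaled summit was 15.4 fragments where 11 were needed. Suz12 passed narrowly, with 11.6 fragments where 11 were needed, and Eed with 13.5 where 12 were needed. Cbx2, which does have a Mof+/- peak, passed only after its 10.9 fragments were rounded to 11. Ezh1 did not pass, with 10.3 fragments where 11 were needed, a shortfall smaller than the counting error of its 16 fragments (9.15 to 26.0). Whether a peak of that strength would have been listed thus cannot be told. The same limit holds for the 8 passing peaks, since counting error was not carried through the scaling. The 18 fragments of Suz12, for example, had an interval of 10.7 to 28.4 before scaling. Among Mof+/+ peaks at least as enriched as that of Ezh2, 13.9% overlapped a Mof+/- peak, so most peaks of that strength had none. At Bmi1 the scaled summit was 21.8 fragments, and the Mof+/- summits held 14 and 12. Those summits stood 743 and 710 bp from the Mof+/+ summit, so these numbers do not compare the same position. Scaling assumes that the immunoprecipitations were equally efficient, and the genotype and the efficiency of the ChIP cannot be told apart with 1 list per genotype.

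**Figure D3:**
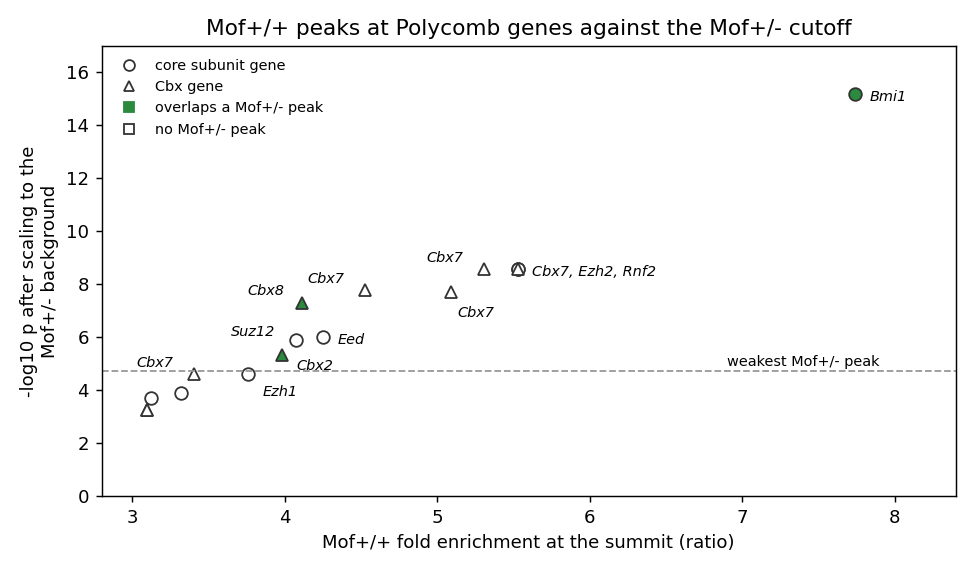
The 17 Mof+/+ peaks at members, with fold enrichment at the summit on the horizontal axis (ratio) and the −log10 p after scaling to the Mof+/- background on the vertical axis. Circles are core subunit genes, triangles are Cbx genes, filled symbols overlap a Mof+/- peak, and the dashed line is the weakest Mof+/- peak at 4.72. Of the 11 symbols above the line 3 are filled, and the symbols of Ezh2, Rnf2 and the internal Cbx7 start site fall on the same spot.

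The Cbx2 and Cbx8 peaks belong to a longer bound stretch of chromosome 11. From 3 kb upstream of Cbx2 to 20 kb upstream of Cbx8, the Mof+/+ list held 7 peaks that covered 18555 bp and the Mof+/- list held 7 that covered 6012 bp. All 7 Mof+/- peaks overlapped a Mof+/+ peak, and 3 of the 7 Mof+/+ peaks overlapped a Mof+/- peak. The strongest of them stood outside the windows, in the intergenic sequence upstream of Cbx8. There the Mof+/+ peak at chr11:119052929-119059312 reached 8.41 (5.98 to 11.5) with 37 fragments, and the Mof+/- peak at chr11:119055015-119057324 reached 7.67 (5.02 to 11.3) with 24. The intervals of these 2 values overlap.

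**Figure D4:**
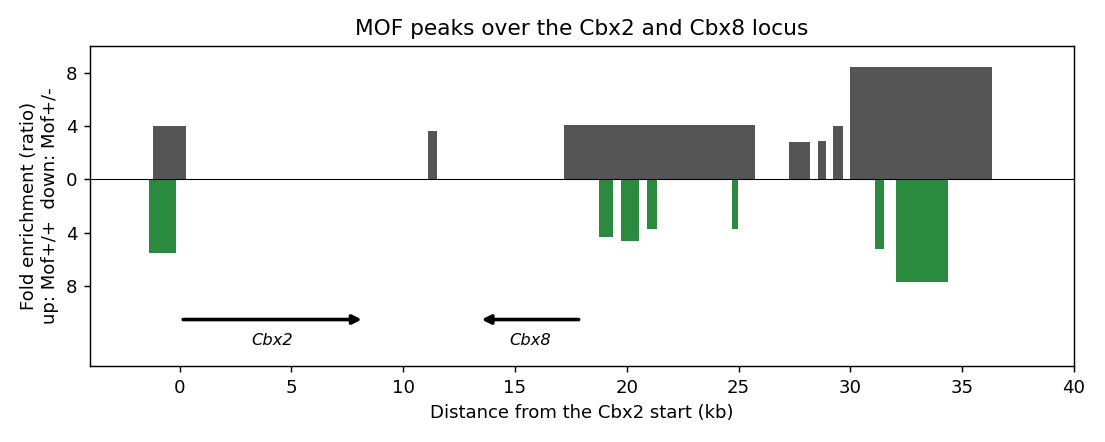
Peaks over the Cbx2 and Cbx8 locus, with the distance from the Cbx2 start in kb on the horizontal axis and fold enrichment (ratio) on the vertical axis, Mof+/+ peaks upward and Mof+/- peaks downward, each bar as wide as its peak. Arrows are the genes in their direction of transcription. The tallest bars of both lists, 8.41 and 7.67, stand upstream of Cbx8.

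The other genes of the Polycomb pathway were mostly bound in the Mof+/+ list too. From a list of 31, 24 had a Mof+/+ peak compared with 44.5% of all protein-coding genes, and the same 24 had one within 1 kb of a start, compared with 41.0%, with strongest peaks of 3.07 to 6.29 and a median of 4.43. By role, 7 of 8 PRC2 accessory genes, 5 of 7 canonical PRC1 genes, 9 of 13 variant PRC1 genes and 3 of 3 genes of the H2A deubiquitinase complex were bound. Epop, Phc1, Scmh1, Pcgf3, Bcorl1, E2f6 and Auts2 had no Mof+/+ peak. The 4 highest were Rybp, which joins variant PRC1, at 6.29, Ring1, the paralogue of Rnf2, at 5.97, Jarid2, which recruits PRC2, at 5.80 and Rbbp4, a histone-binding subunit of PRC2, at 5.49. The Ring1 value belongs to a peak 2352 bp from a Ring1 start, over H2-Ke6, and the peak at the Ring1 start itself reached 4.25. The Rbbp4 summit lay 457 bp before its start, in an untranslated exon of the neighbouring gene Zbtb8os.

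In the Mof+/- list 1 of these 31 genes had a peak, Ring1, compared with 1.89% of all protein-coding genes, and 1 gene of 31 is too few to set apart from that share. The Mof+/- peak at chr17:34027048-34027927 reached 5.24 with 17 fragments and lay 2368 bp from a Ring1 start, with its summit in the coding sequence of the neighbouring gene H2-Ke6 and in an exon of Gm20427. It was thus not within 1 kb of a start site of Ring1.

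**Figure D5:**
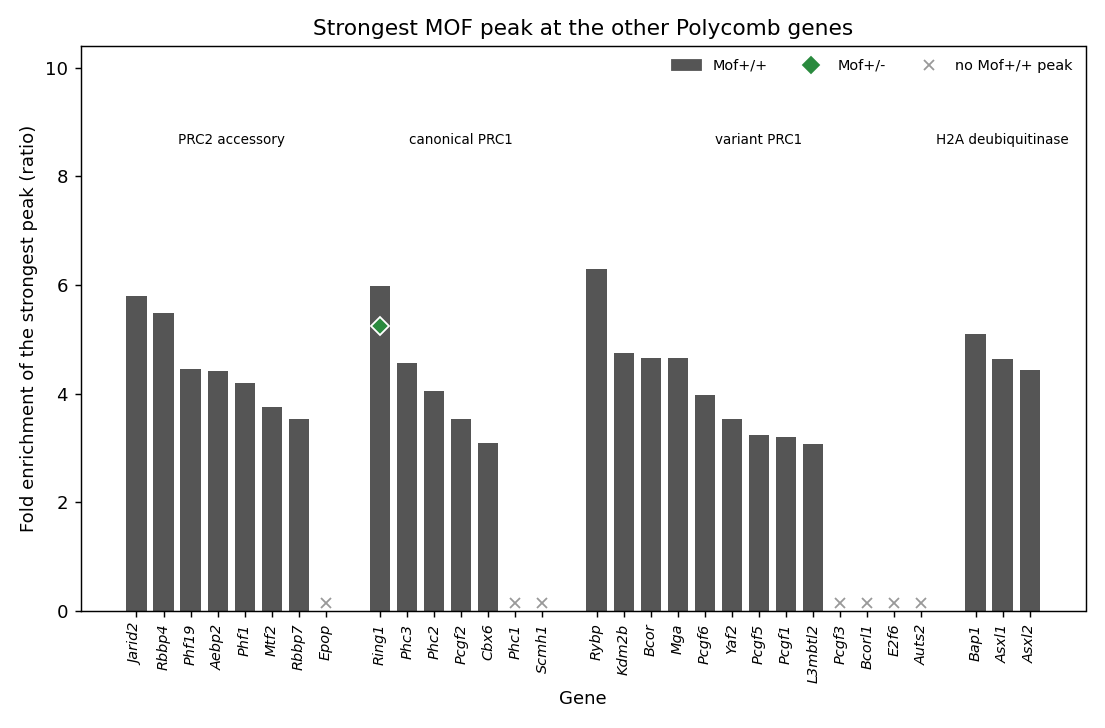
Fold enrichment (ratio) of the strongest Mof+/+ peak at each of the 31 other Polycomb genes as bars, grouped by role, with a green diamond for the strongest Mof+/- peak and a cross where no Mof+/+ peak was listed. The only diamond is at Ring1 (5.24), and 7 genes carry a cross.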

How the data were processed

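MOF ChIP-seq of visceral WAT was analysed from 2 peak lists. The authors mapped reads to GRCm38 (snakePipes) and called peaks with MACS2 (2.1.1.20160309.3) against input at a q-value of 0.1. The deposited values used are the fold enrichment at the summit, a ratio, its −log10 p-value and −log10 q-value, and the summit position. In each list 1 value column, the deposited peak score that MACS2 derives from the q-value, was not used. Lists were assigned to genotypes by name and by their number of peaks on assembled chromosomes. How libraries were combined in a list is not stated, the methods mention merging within 1000 bp, and the lists were used as deposited. The MOF antibody in the labels differs from those in the study's reporting summary. Signal tracks and H3 libraries were not analysed here.

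The members and the lists of other Polycomb genes and markers were chosen with earlier results of these data known. Genes came from GENCODE M21 and coordinates count from 1. Peaks overlapped when they shared 1 bp. Fragments and background were solved from the deposited fold enrichment and p-value, to within 0.001 in −log10 p for 19769 of 19773 Mof+/+ and 727 of 731 Mof+/- peaks, with code tested on simulated data. Scaled fragments were rounded to whole numbers before the p-value was computed. Intervals are exact 95% Poisson intervals (Python 3.11.15, scipy 1.17.1). Named were all members, their neighbours within 3 kb or sharing a peak, and, of 31 other Polycomb genes, those with a Mof+/- peak and the 4 most enriched. The 7 without a Mof+/+ peak, and Bcor and Kdm2b for their number of peaks, were also named, after their values were seen. An item of that list is not reported here. The closing section gives the effect of other thresholds, windows and overlap rules.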

Additional observations from a re-analysis of the deposited data

Results flagged for a closer look

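Peaks of the Mof+/- list also stood near members but outside the windows, in data that the comparisons by gene do not use. Within 20 kb of Bmi1 there were 6 such peaks, all downstream of the gene, either before or within Spag6, a gene for a sperm flagellar protein. They ranged in fold enrichment from 2.78 to 6.13 and each overlapped a Mof+/+ peak, 5 of them the peak of 9312 bp at chr2:18687825-18697136, which reached 7.15 (5.18 to 9.65) with 41 fragments. At the Bmi1 start itself the highest Mof+/- value was 4.37. Within 20 kb of Cbx2 and Cbx8 there were 3 such peaks, the highest at 7.67, and each overlapped a Mof+/+ peak. No input or H3 values were analysed for these places.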

How the results depend on the processing

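The 15 results on counts of genes and peaks, overlaps, passes and medians of fold enrichment were recomputed under other thresholds, windows and overlap rules. Of the 127 alternatives, 119 stayed within 1.5 times the reported count, kept a median within its counting interval or kept the order of the medians. Covered lengths, peak widths, sequence counts, marker shares and totals of the Cbx2 and Cbx8 locus were not recomputed. The 9 members and each of the 6 core subunit genes and 3 Cbx genes had a Mof+/+ peak under every setting tried. With gene bodies only, 1 member (Bmi1) had a Mof+/- peak, 1 Mof+/- peak was left at members, and 0 Cbx genes and 0 other Polycomb genes had one. At a q-value of at most 0.001, 3 Mof+/- peaks were left at members, still at Bmi1, Cbx2 and Cbx8. Other Polycomb genes with a Mof+/- peak numbered 0 with a window of 1 kb around starts and 2 with a window of 10 kb, against 1 as reported. When 50% of both peaks had to be shared, 1 Mof+/+ peak at members overlapped a Mof+/- peak. These follow from narrower or wider windows, a stricter threshold and stricter overlap. No paired analysis was possible because the lists hold 1 set of values per genotype and their columns carry no replicate number, and for the same reason no replicate could be left out. Depth limits single peaks, since summits at members held 11 to 34 fragments.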
